A study of Homo sapiens with 12 samples.

Results

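Circular RNAs (circRNAs) made from genes of the TGF-beta, Wnt, Notch and Hippo signalling pathways were followed in LN229 and T98G, established cell lines from human glioblastoma, each in normoxia and in hypoxia. A circRNA is a closed loop that forms when the end of an exon is joined backwards to the start of the same or an earlier exon, and only reads that cross this back-splice junction are counted for it. All circRNAs whose host gene was 1 of 46 named pathway genes were taken: 15 genes of TGF-beta and BMP signalling, 14 of Wnt, 8 of Notch and 9 of Hippo. Of these hosts, 40 had a listed circRNA and 38 had at least 1 junction read. Together they had 112 of the 12538 listed circRNAs, 93 of the 9526 with a read, and 628 of the 71526 junction reads. ZEB2 and APC were listed without a read, and SMAD3, SKI, TCF4, TNKS, FZD3 and RBPJ were not analysed here.

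Each line was sampled in both conditions with 3 libraries, which makes 4 groups. The gas mix was 95% air with 5% CO2 for normoxia, and 1% O2 with 5% CO2 for hypoxia. Temperature, humidity and medium (DMEM with serum and antibiotics) were shared by all groups. The labels give no genetic change in either line, do not give the duration of hypoxia, and do not state that replicates were cultured separately. The p-values therefore measure only the spread between libraries, which may be technical. Total RNA was depleted of ribosomal RNA before sequencing.

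In the TGF-beta family, a ligand joins type II and type I receptor kinases, and the receptors phosphorylate SMAD proteins that move to the nucleus with SMAD4. Wnt ligands bind Frizzled and LRP5 or LRP6 and stop the destruction complex (AXIN, APC, GSK3B and casein kinase) from removing beta-catenin. Notch receptors are cut by ADAM proteases and then by gamma-secretase, and the freed intracellular domain recruits mastermind-like (MAML) coactivators to RBPJ. In the Hippo pathway, STK3 and STK4 activate LATS kinases, which hold the coactivator YAP1 away from TEAD transcription factors. In glioblastoma these pathways are known for their part in invasion, in mesenchymal traits and in the upkeep of stem-like cells.

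Junctions of the main loops of some hosts, and of some sister loops that share an end with them, are shown first, since a junction is what was counted. TEAD1 is an exception: the loop shown had 6 reads, while its largest loop, hsa_circ_0095328, had 8 and shares no end with it. Other sister loops that share an end, such as BMPR2 hsa_circ_0057799 and RYK hsa_circ_0067435, are left out. None is shown for the remaining hosts, among them STK3, MAML3, SMAD4, SMAD5, TGFBR2 and TAOK1. Each line gives the last 15 bases of the donor exon in lower case, followed by the first 15 bases of the acceptor exon in capitals, 5′ to 3′ in the sense of the host transcript. Bases were read from GENCODE release v29 transcripts (GRCh38), after each circRNA was matched to a run of exons of its host by genomic span and spliced length. The positions are those of the deposited table (hg19).
ACVR2A hsa_circ_0001073 (chr2:148653870-148657467, plus strand, exons 2 to 4): cttgttccaactcaaGTGCTATACTTGGTA
ACVR2A hsa_circ_0007734 (chr2:148653870-148657136, plus strand, exons 2 to 3): tggaagtcacacagcGTGCTATACTTGGTA
BMPR2 hsa_circ_0003218 (chr2:203329532-203332412, plus strand, exons 2 to 3): acacaacaccactcaCTTCGCAGAATCAAG
SMAD2 hsa_circ_0000847 (chr18:45391430-45423180, minus strand, exons 2 to 6): aaagtatggacacagGTTCGATACAAGAGG
SMAD2 hsa_circ_0003694 (chr18:45391430-45396935, minus strand, exons 3 to 6): aaagtatggacacagCACTTGCTCTGAAAT
ZEB1 hsa_circ_0000228 (chr10:31661947-31676195, plus strand, exons 2 to 3): ccttgttctctaaagTTTTCAGTTTAAATT
ZEB1 hsa_circ_0003793 (chr10:31661947-31676727, plus strand, exons 2 to 4): tctaatctttaaaagTTTTCAGTTTAAATT
LRP6 hsa_circ_0000378 (chr12:12397196-12397589, minus strand, exon 2): agatccttcaagtggCGGCCCCTTTGTTGC
GSK3B hsa_circ_0008797 (chr3:119582266-119624699, minus strand, exons 7 to 10): acttcaccactcaagATGTATGGTCTGCTG
RYK hsa_circ_0003633 (chr3:133894453-133914026, minus strand, exons 7 to 13): agcgctagtgatgtgCATTAGTGCCAGCAG
MAML2 hsa_circ_0024085 (chr11:95825056-95826681, minus strand, exon 2): caacaacagagacagCTCCAGGGTTCCTTG
TEAD1 hsa_circ_0006284 (chr11:12883797-12886447, plus strand, exons 4 to 5): cattccaagctaaagGTAGGAATGAATTGA
The ACVR2A loops share their acceptor exon and the SMAD2 loops share their donor exon, so only one side of the junction tells them apart. The ZEB1 loops likewise share the acceptor.

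Of the 93 circRNAs with a read, 77 were exonic (82.8%), 11 intronic (11.8%) and 5 sense overlapping (5.38%), by the class in the deposited table. Among the 9433 other circRNAs with a read these shares were 81.7%, 6.37% and 11.6%. Exonic loops held 589 of the 628 reads, and no intronic loop had more than 3 reads. The median predicted length of the exonic loops was 527 nt, with a range of 128 to 2797 nt, beside 558 nt for the other exonic circRNAs. A circBase identifier, which marks a loop already catalogued from other samples, was given for 72 of the 93 (77.4%), beside 76.3% of the others. These shares are descriptions of the table and were not tested.

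The exon match succeeded for 71 of the 77 exonic loops (92.2%), in 34 hosts and with 529 reads, and each matched 1 exon run only. Exon 2 was the first exon of 29 of the 71 loops (40.8%), and these held 281 of the 529 reads (53.1%). For other exonic circRNAs the share starting at exon 2 was 32.3% of 7192 matched loops. These other loops held 37.2% of their reads there, or 43.2% with the CYP24A1 circRNAs left out. A single exon made up 10 of the member loops (14.1%), beside 4.62% of the others. Coding sequence filled 51 of the 71 loops completely, and 12 included the start codon, among them the larger SMAD2 loop. None of these shares was tested.

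Most hosts had few reads. Of the 38 with a read, 23 had 1 to 10 reads over all 12 libraries and held 89 reads together, and the 15 hosts with more than 10 reads held 539. The median host had 6.5 reads, beside 6 for all other hosts with a read. SMAD2 had the most reads (97), followed by STK3 (68), ACVR2A (59), ZEB1 and LRP6 (39 each), MAML3 (36), GSK3B (35) and RYK (31). A read was found in every library only for ZEB1 and STK3, and in all but 1 library for SMAD2, ACVR2A and LRP6. Between 11 and 20 member hosts had a read in a single library.

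**Figure D1:**
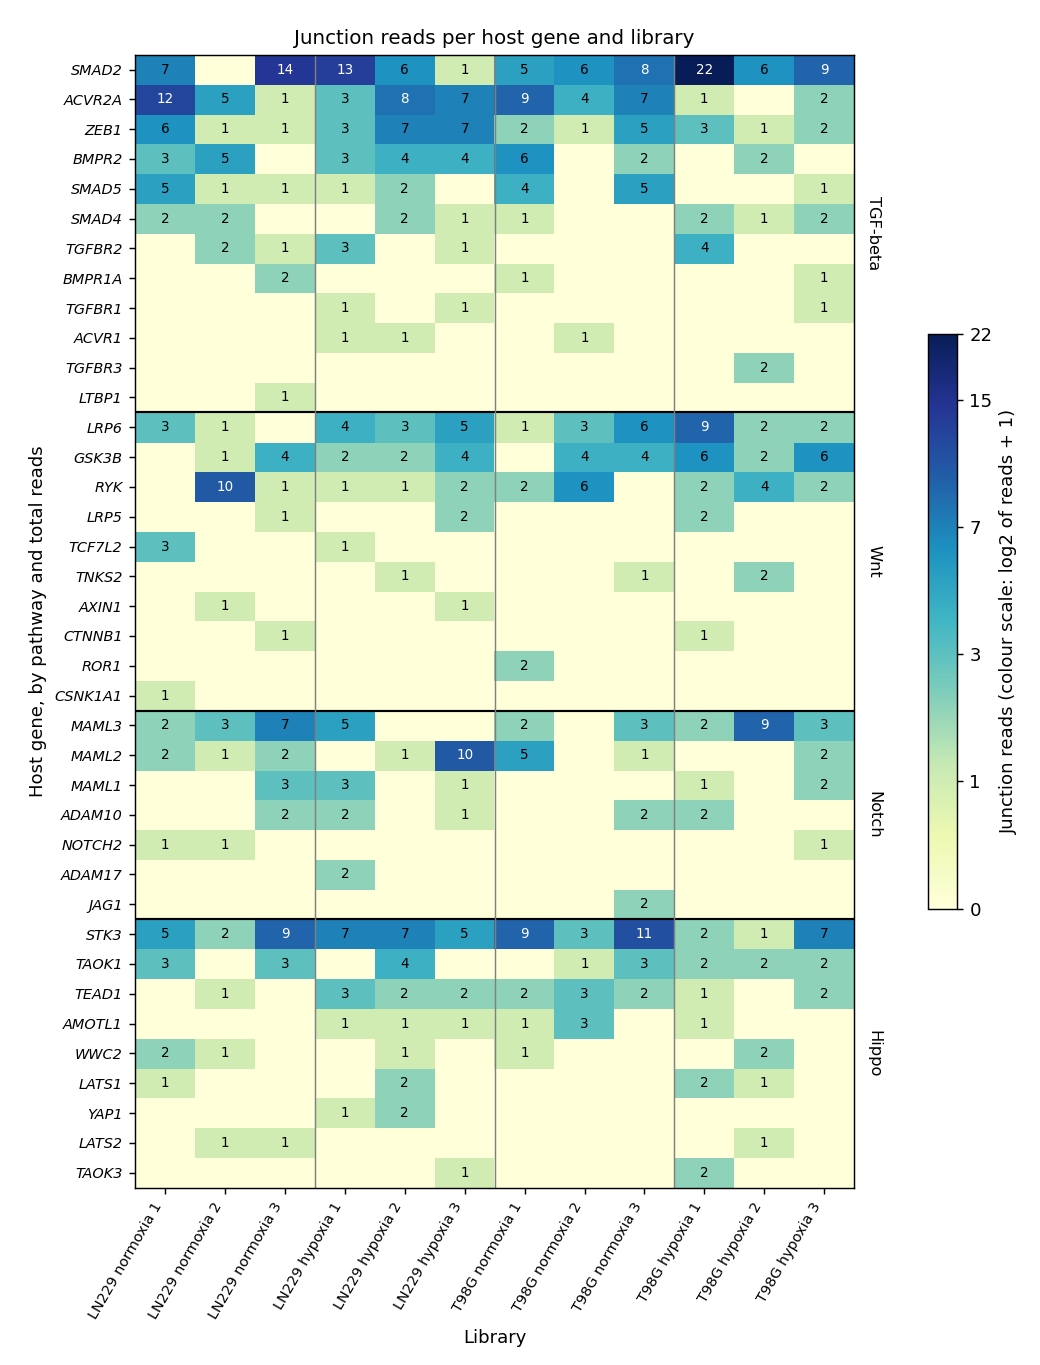
Junction reads of the 38 member hosts with a read (rows, by pathway and total) in each of the 12 libraries (columns, by group), with the count in each cell, no number for 0, and colour on a log2 scale of reads + 1. SMAD2, STK3 and ACVR2A have the most reads, and the 4 highest single values are 22 reads of SMAD2 in T98G hypoxia replicate 1, 14 of SMAD2 in LN229 normoxia replicate 3, 13 of SMAD2 in LN229 hypoxia replicate 1 and 12 of ACVR2A in LN229 normoxia replicate 1.

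Before any comparison, 3 libraries stood apart from their groups over the 418 hosts tested, of which 2 were labelled normoxia. LN229 normoxia replicate 3 had a Pearson correlation of log2 CPM (junction reads scaled to a common library size) of 0.181 to 0.216 with replicates 1 and 2, which reached 0.71 with each other, and of 0.696 to 0.756 with the T98G hypoxia libraries. T98G normoxia replicate 3 had 0.463 to 0.49 with its own replicates and 0.607 to 0.66 with T98G hypoxia. LN229 hypoxia replicate 3 had 0.358 with replicate 1 and 0.719 with replicate 2 of its group, and 0.499 to 0.516 with LN229 normoxia replicates 1 and 2. CYP24A1 circRNAs had 1880 reads in LN229 normoxia replicate 3 and 679 in T98G normoxia replicate 3, and 0 to 2 in the other normoxia libraries. In hypoxia they had 1499, 387 and 1 reads in LN229 and 1336, 1006 and 1376 in T98G, the 1 read being that of LN229 hypoxia replicate 3. The tests and the Hippo shares are given also without both normoxia replicates 3, and the ACVR2A tests without LN229 hypoxia replicate 3. Libraries held 4298 to 7608 junction reads. Of 9 glioma and neural marker genes only CDR1 had reads (1 to 94 per library), no fibroblast or immune marker gene did, and 1 of 6 endothelial marker genes had 2 reads, so the line labels could not be checked from this table. CDR1 had 1 to 4 reads in normoxia replicates 1 and 2 of both lines, and 86 (LN229) and 52 (T98G) in normoxia replicates 3. In hypoxia it had 94, 72 and 65 in LN229 and 84, 67 and 79 in T98G. By CDR1, LN229 hypoxia replicate 3 thus lay with the other hypoxia libraries.

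Summed over the members, the pathways took a small share of the junction reads in every group. In LN229 all members together made up 0.853 ± 0.152% of the reads of a library in normoxia (SD, n = 3) and 0.914 ± 0.0919% in hypoxia. In T98G they made up 0.955 ± 0.122% in normoxia and 0.799 ± 0.158% in hypoxia. The 12 libraries lay between 0.685% and 1.03%, and the groups overlapped. TGF-beta and BMP hosts held 281 reads, Hippo hosts 136, Wnt hosts 125 and Notch hosts 86. In each pathway 2 hosts held most of these reads: SMAD2 and ACVR2A held 55.5% in TGF-beta, LRP6 and GSK3B 59.2% in Wnt, MAML3 and MAML2 69.8% in Notch, and STK3 and TAOK1 64.7% in Hippo.

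TGF-beta hosts took 0.41 ± 0.183% of the LN229 reads in normoxia and 0.416 ± 0.0232% in hypoxia, and 0.422 ± 0.132% and 0.322 ± 0.131% of the T98G reads (SD, n = 3 each). The Wnt share was 0.163 ± 0.096%, 0.157 ± 0.0794%, 0.194 ± 0.103% and 0.209 ± 0.0726% in the same order. Notch hosts took 0.126 ± 0.0511%, 0.136 ± 0.107%, 0.0893 ± 0.0774% and 0.12 ± 0.0447%. In these 3 pathways hypoxia and normoxia overlapped in each line. T98G normoxia replicate 2 had no Notch read, which allows a share of up to 0.0698% (counting error only). The Hippo share in T98G was 0.25 ± 0.0165% in normoxia and 0.148 ± 0.0231% in hypoxia, and the groups did not overlap (0.233 to 0.266% against 0.126 to 0.172%). Without T98G normoxia replicate 3 the normoxia range was 0.233 to 0.25%. In LN229 it was 0.157 ± 0.0462% and 0.206 ± 0.0618%, and the groups overlapped. Between the lines the Hippo share did not overlap in normoxia, with 0.105 to 0.194% in LN229 and 0.233 to 0.266% in T98G, nor without both replicates 3 (0.105 to 0.194% and 0.233 to 0.25%). In hypoxia the lines overlapped. Among the 418 single hosts tested, the groups did not overlap for 33.5% in T98G and for 8.13% between the lines in normoxia. Neither Hippo difference remained free of overlap once the STK3 reads were taken off, as given with STK3 below. A sum over chosen members was given no test. In these shares, fewer loops per cell and more junction reads from other genes cannot be told apart. The totals include CYP24A1 circRNAs, with 1006 to 1376 reads in T98G hypoxia libraries and 1880 in LN229 normoxia replicate 3. With CYP24A1 reads taken off the totals, both Hippo gaps were narrower, though the groups still did not overlap.

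**Figure D2:**
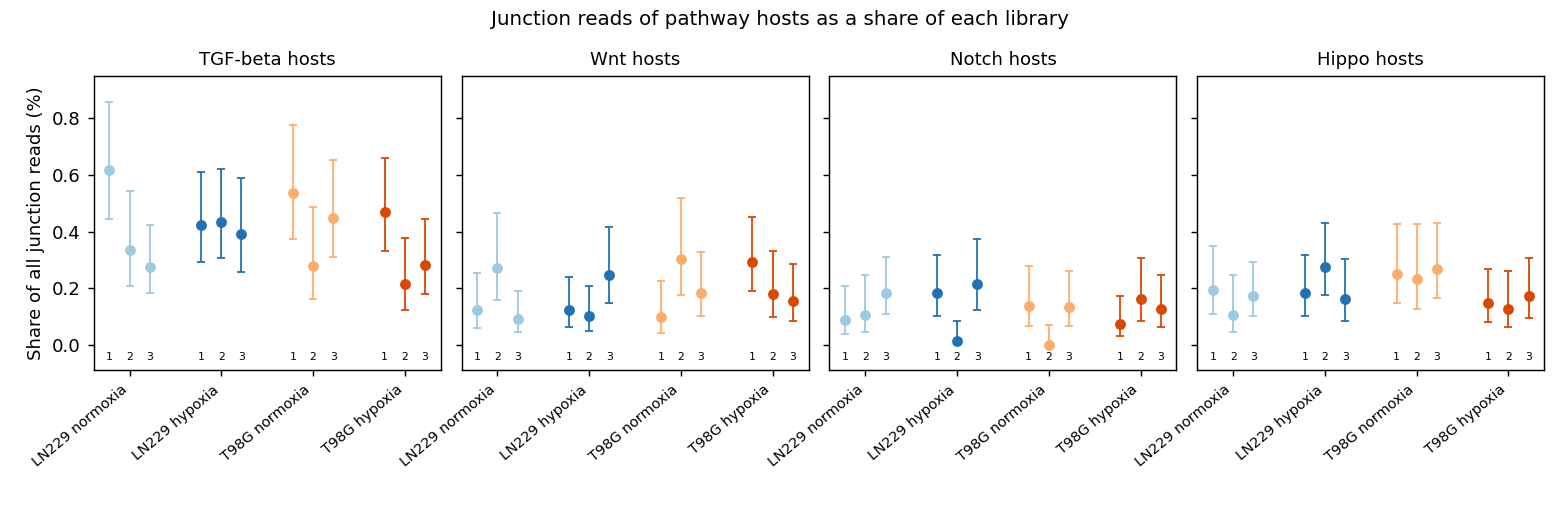
Share of all junction reads of a library (percent) taken by the member hosts of each pathway, with 1 point per library, numbered by replicate, and bars for the 95% Wilson interval of its count (for the library with 0 Notch reads, up to the limit that a count of 0 allows, 0.0698%). Only in the Hippo panel do the T98G normoxia points (0.233 to 0.266%) lie apart from the T98G hypoxia points (0.126 to 0.172%), and the bars of these libraries overlap.

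Members were tested for hypoxia against normoxia in each line, for the average of both lines, for the difference between the lines, and for the lines against each other. Host sums and single loops were tested where 3 or more of the 12 libraries had 5 or more reads each. They were fitted with edgeR's quasi-likelihood test over the whole table, with Benjamini-Hochberg adjustment over all features tested. Of the 418 hosts that passed this filter 6 were members (ACVR2A, SMAD2, ZEB1, LRP6, MAML3 and STK3), and of the 244 loops 4 were members. No member host or loop had an adjusted p under 0.05 in any of the 6 comparisons, by edgeR or by DESeq2. The share of all hosts called by edgeR was 3.83% for the average of both lines (16 hosts) and 0% in each of the other comparisons. At an unadjusted p under 0.05, 0 of 6 member hosts were counted in LN229 (9.33% of all hosts), 1 in T98G (18.2%), 1 for the average (19.1%), 1 for the difference (7.42%), 0 for the lines in normoxia (3.11%) and 1 for the lines in hypoxia (9.81%). That host was ACVR2A each time. Without both normoxia replicates 3, 4 member hosts (ACVR2A, SMAD2, ZEB1 and STK3) of 367 were tested, and ACVR2A alone was called, in T98G and for the average of both lines. Calls over all hosts then made up 5.99% in LN229, 17.2% in T98G and 24.8% for the average. The groups did not overlap for 0 of 6 member hosts in LN229 (9.81% of all hosts), 1 in T98G (33.5%), 0 for the average (3.11%), 0 for the lines in normoxia (8.13%) and 2 for the lines in hypoxia (17.7%).

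At loop level edgeR called 0.41% of the 244 loops in T98G and 4.1% for the average of both lines, and 0% in the other comparisons. The ACVR2A loop alone among the 4 member loops had an unadjusted p under 0.05, in T98G (20.9% of all loops) and between the lines in hypoxia (8.2%). The count was 0 of 4 in LN229 (8.2%), for the average (19.3%), for the difference (7.79%) and for the lines in normoxia (1.64%). In every group 1 read was worth 140 to 207 CPM at host level, and the common dispersion of 0.22 corresponds to a coefficient of variation of 0.469 between libraries.

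The activin type II receptor ACVR2A, a kinase that binds activins and related ligands, had its fewest reads in T98G hypoxia. Its circRNAs had 9, 4 and 7 reads in T98G normoxia and 1, 0 and 2 in T98G hypoxia. In LN229 they had 12, 5 and 1 reads in normoxia and 3, 8 and 7 in hypoxia. The T98G groups did not overlap, as was true of 33.5% of all hosts (16.7% in the lower direction), while the LN229 groups did. On the CPM scale the T98G means were 1162 ± 366 in normoxia and 175 ± 177 in hypoxia (SD, n = 3). The log2 fold change of hypoxia against normoxia in T98G was -2.55 (SE 0.90), with an unadjusted p of 0.0106 and an adjusted p of 0.128 by edgeR, lower in 3 of 3 libraries than in any normoxia library. Pooled over libraries these are 20 of 15510 against 3 of 18804 junction reads, a ratio of 8.08 with an exact 95% counting interval of 2.4 to 42.5. That interval covers counting error only and leaves out the spread between libraries, which the edgeR test includes.

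In LN229 the log2 fold change of ACVR2A was -0.05 (SE 0.70, adjusted p 0.981 by edgeR), on means of 965 ± 842 and 922 ± 345 CPM. The averaged response was -1.30 (SE 0.57, adjusted p 0.209), and the response of T98G minus that of LN229 was -2.50 (SE 1.15, adjusted p 0.633 by edgeR). Between the lines, ACVR2A was lower in T98G than in LN229 hypoxia without overlap (log2 fold change -2.23, SE 0.91, adjusted p 0.342 by edgeR), and in normoxia the difference was 0.27 (SE 0.69, adjusted p 0.99). The other member host without overlap between the lines in hypoxia was ZEB1. The T98G call of ACVR2A depended on which libraries were used. When the 6 T98G libraries were fitted alone the adjusted p was 0.0405 (log2 fold change -2.54), when 12.9% of 418 hosts were called. Without both normoxia replicates 3 it was 0.0369 in T98G (-2.57; 17.2% of 367 hosts called) and 0.0317 for the average of both lines (-1.57; 24.8%). Without LN229 normoxia replicate 3 alone the average had an adjusted p of 0.0388 (-1.51; 18.8% of 388 hosts called). In LN229 the value without both normoxia replicates 3 was -0.56 (SE 0.61, adjusted p 0.66). Without LN229 hypoxia replicate 3 it was -0.12 in LN229 (adjusted p 0.969), -1.34 for the average (adjusted p 0.227), and -2.16 between the lines in hypoxia (adjusted p 0.75), all by edgeR. In LN229 normoxia replicate 3, with 1880 CYP24A1 reads, ACVR2A had 1 read, and in T98G normoxia replicate 3, with 679, it had 7. The other normoxia libraries, with 0 to 2 CYP24A1 reads, had 12 and 5 in LN229 and 9 and 4 in T98G. LN229 hypoxia, with 1499, 387 and 1 CYP24A1 reads, had 3, 8 and 7. T98G hypoxia, with 1336, 1006 and 1376, had 1, 0 and 2. Whether ACVR2A moves with CYP24A1 was not tested.

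Nearly all ACVR2A reads came from the larger loop of exons 2 to 4 (55 of 59, 93.2%), with a predicted length of 473 nt, and the loop of exons 2 to 3 had 4 reads. The larger loop had 8, 3 and 7 reads in T98G normoxia and 1, 0 and 2 in hypoxia. Its log2 fold change was -2.40 (SE 0.95, unadjusted p 0.02, adjusted p 0.145 by edgeR), where 36.9% of all loops did not overlap. Without both normoxia replicates 3 it was -2.26 (SE 0.94, adjusted p 0.085). Between the lines in hypoxia it was -2.29 (SE 0.95, adjusted p 0.45). The loop of exons 2 to 3, whose junction differs in the donor side shown above, had its 4 reads in normoxia only.

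BMPR2, the type II receptor for bone morphogenetic proteins, had 29 reads in 8 libraries. In LN229 these were 3, 5 and 0 in normoxia and 3, 4 and 4 in hypoxia, while T98G had 6, 0 and 2 in normoxia and 0, 2 and 0 in hypoxia. Its groups overlapped in both lines, and 21 of its reads came from the loop of exons 2 to 3. TGFBR2, the type II receptor for TGF-beta itself, had 11 reads spread over 4 loops, none in T98G normoxia and 4 in T98G hypoxia, all in 1 library. The type I receptors TGFBR1 (3 reads), BMPR1A (4) and ACVR1 (3), the co-receptor TGFBR3 (2) and LTBP1, which stores latent TGF-beta in the matrix (1 read), were found with these few reads only. The paralogs ACVR2A and BMPR2 had the 2 highest totals among receptors of the family.

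SMAD2, the receptor-activated transducer of TGF-beta and activin signals, had 7, 0 and 14 reads in normoxia and 13, 6 and 1 in hypoxia in LN229. The T98G libraries had 5, 6 and 8 reads in normoxia and 22, 6 and 9 in hypoxia. The highest value, 22, came from 1 library and made up 22.7% of all SMAD2 reads, and the groups overlapped in both lines. The log2 fold changes were -0.03 (SE 0.80) in LN229 and 0.97 (SE 0.78) in T98G, with an average of 0.47 (SE 0.57, adjusted p 0.649 by edgeR). Without both normoxia replicates 3 the values for SMAD2 were 0.89 (SE 0.89) in LN229, 1.11 (SE 0.77) in T98G and 1.00 (SE 0.59, adjusted p 0.234 by edgeR) for the average. The larger loop of exons 2 to 6 held 72 of the 97 reads and had a log2 fold change of 0.03 for the average of both lines (SE 0.57, adjusted p 0.965 by edgeR).

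The smaller SMAD2 loop of exons 3 to 6, which lacks the exon with the start codon, had 23 reads. In LN229 it had 2, 0 and 3 reads in normoxia and 3, 2 and 0 in hypoxia. In T98G normoxia it had no read in any library, and in T98G hypoxia it had 10, 2 and 1. Pooled over the libraries, T98G hypoxia had 13 reads against a floor of 3 counts over the normoxia group, a ratio of 3.57. This ratio takes the 13 reads as exact, and the lower end of the exact 95% counting interval was 2.51. Neither value covers the spread between libraries, and 10 of the 13 reads came from 1 library, so no firm bound is given. This loop did not reach the filter for a test and was singled out after its values were seen. The larger loop of the same donor exon had 5, 6 and 8 reads in T98G normoxia and 12, 4 and 8 in hypoxia. SMAD5, which transduces BMP signals, had 5, 1 and 1 reads in normoxia and 1, 2 and 0 in hypoxia in LN229, and 4, 0 and 5 in normoxia and 0, 0 and 1 in hypoxia in T98G. SMAD4, the common partner SMAD, had 13 reads, with at most 2 in a library.

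ZEB1, a zinc finger repressor known as a driver of mesenchymal traits, was spread over 7 loops with 39 reads, of which the largest held 12 (30.8%). In LN229 its reads were 6, 1 and 1 in normoxia and 3, 7 and 7 in hypoxia. T98G had 2, 1 and 5 in normoxia and 3, 1 and 2 in hypoxia. The groups of hypoxia and normoxia overlapped in both lines. On the log2 scale its change in hypoxia was 1.02 (SE 0.78, adjusted p 0.72 by edgeR) in LN229 and -0.33 (SE 0.89, adjusted p 0.824) in T98G. In hypoxia ZEB1 was lower in T98G than in LN229 without overlap on the CPM scale alone, where the nearest libraries had 523.7 and 511.5 CPM from 3 reads each, with a log2 difference of -1.23 (SE 0.82, adjusted p 0.645 by edgeR). The changes of ZEB1 without both normoxia replicates 3 were 0.61 (SE 0.82) in LN229 and 0.38 (SE 1.12) in T98G, where the sign turned. ZEB1 fell outside the rule for named hosts and was described after its values were seen.

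**Figure D3:**
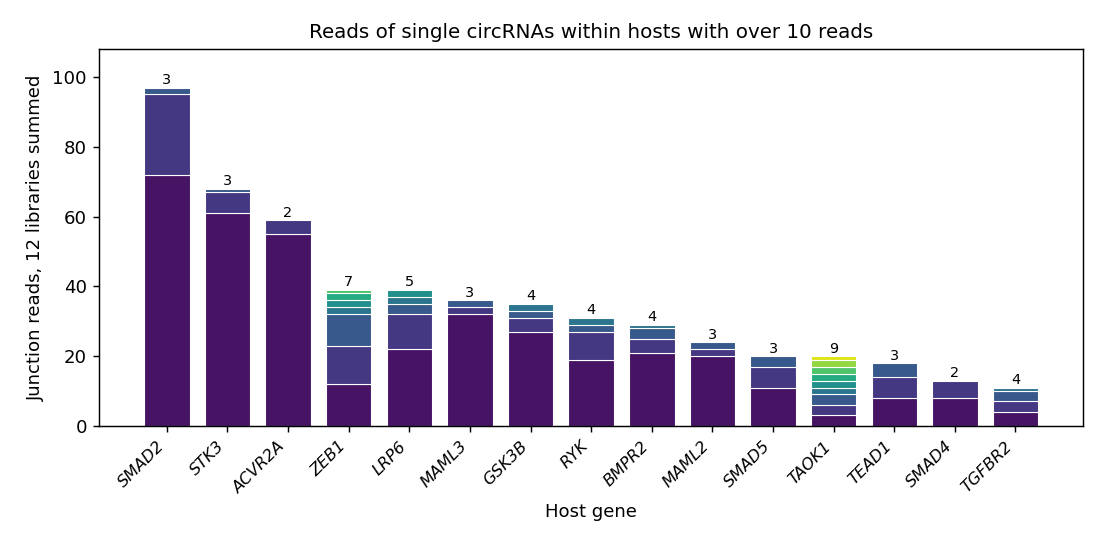
Junction reads of each member host with over 10 reads, summed over 12 libraries and divided into its single loops from the largest at the bottom, with the number of loops above each bar. ACVR2A, STK3 and MAML3 come mainly from 1 loop, and TAOK1 and ZEB1 from 9 and 7.

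Among Wnt hosts, the co-receptor LRP6 had 3, 1 and 0 reads in normoxia and 4, 3 and 5 in hypoxia in LN229. T98G libraries had 1, 3 and 6 reads in normoxia and 9, 2 and 2 in hypoxia. The groups overlapped in both lines, in LN229 through normoxia replicate 1 on the CPM scale. The log2 fold changes were 1.48 (SE 0.97, adjusted p 0.708 by edgeR) in LN229 and 0.40 (SE 0.85, adjusted p 0.773) in T98G, and their average was 0.94 (SE 0.64, adjusted p 0.414). The single-exon loop of exon 2 held 22 of the 39 reads and the loop of exons 4 to 7 held 10. The related co-receptor LRP5 had 5 reads.

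GSK3B, the kinase that marks beta-catenin for removal, had 35 reads. LN229 had 0, 1 and 4 in normoxia and 2, 2 and 4 in hypoxia, and T98G had 0, 4 and 4 in normoxia and 6, 2 and 6 in hypoxia. It did not reach the filter, and the groups overlapped in both lines. Its loop of exons 7 to 10 held 27 of the reads (77.1%) and contained only coding sequence. RYK, a Wnt receptor with an inactive kinase domain, had 31 reads, of which 10 (32.3%) came from LN229 normoxia replicate 2 alone. AXIN1, the destruction complex scaffold, and CTNNB1, beta-catenin itself, had 2 reads each, and the casein kinase CSNK1A1 had 1. TNKS2, a tankyrase that acts on axin, and TCF7L2, a DNA-binding partner of beta-catenin, had 4 reads each, and the receptor ROR1 had 2.

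Most Notch reads came from the MAML coactivators. MAML3 had 2, 3 and 7 reads in normoxia and 5, 0 and 0 in hypoxia in LN229. For T98G the reads were 2, 0 and 3 in normoxia and 2, 9 and 3 in hypoxia. The groups overlapped in both lines. The log2 fold change was -1.19 (SE 1.11, adjusted p 0.818 by edgeR) in LN229 and 1.54 (SE 1.10, adjusted p 0.418) in T98G, with an average of 0.18 (SE 0.84, adjusted p 0.919) and a difference of 2.73 (SE 1.57, adjusted p 0.681). One loop of 1599 nt held 32 of its 36 reads.

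MAML2 had 24 reads, 10 of them (41.7%) in LN229 hypoxia replicate 3 and 20 in the single-exon loop of exon 2. MAML1 had 10 reads, 5 in each of 2 loops. The sheddases ADAM10 and ADAM17 had 9 and 2 reads, and the ligand JAG1 had 2. The receptor NOTCH2 had 3 reads. NOTCH2NL, a partial copy of it, also has 2 listed loops, and whether this makes any of the 3 reads uncertain was not tested. Of the 16 loops of Notch hosts 4 were intronic (25%), 2 each in MAML2 and MAML3, with 8 reads in all.

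STK3, the mammalian Hippo kinase also called MST2, held 50% of the Hippo reads (68 of 136). Its LN229 libraries had 5, 2 and 9 reads in normoxia and 7, 7 and 5 in hypoxia. The T98G counts were 9, 3 and 11 in normoxia and 2, 1 and 7 in hypoxia. These T98G groups overlapped through normoxia replicate 2 and hypoxia replicate 3. The log2 fold changes were 0.23 (SE 0.64, adjusted p 0.948 by edgeR) in LN229 and -1.11 (SE 0.67, adjusted p 0.356) in T98G, with an average of -0.44 (SE 0.47, adjusted p 0.613). Without both normoxia replicates 3 the values for STK3 were 0.77 (SE 0.74), -0.83 (SE 0.73) and -0.03 (SE 0.54, adjusted p 0.981 by edgeR). A loop of exons 5 to 6 held 61 of the reads (89.7%) and had an averaged log2 fold change of -0.17 (SE 0.53, adjusted p 0.847 by edgeR). The T98G groups thus overlapped for STK3 while they did not for the summed Hippo share, which includes STK3. Pooled over the T98G libraries, STK3 had 23 reads in normoxia and 10 in hypoxia. TEAD1 (7 and 3) and AMOTL1 (4 and 1) also had fewer in hypoxia. TAOK1 (4 and 6), LATS1 (0 and 3), LATS2 (0 and 1), WWC2 (1 and 2) and TAOK3 (0 and 2) had more, and YAP1 had none. In T98G the Hippo sums were 13, 10 and 16 reads in normoxia and 10, 7 and 11 in hypoxia. LN229 normoxia had 11, 5 and 13. With the STK3 reads taken off these sums, the share overlapped between the T98G groups and between the lines in normoxia.

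TAOK1, a kinase that acts upstream of STK3 and STK4, had 20 reads over 9 loops, and no loop had more than 3. TEAD1, the DNA-binding partner of YAP1, had 18 reads in 9 libraries, with at most 3 in a library. The downstream kinases LATS1 and LATS2 had 6 and 3 reads, and YAP1 itself had 3, all in LN229 hypoxia. AMOTL1, an angiomotin that binds YAP1, had 8 reads, none in LN229 normoxia. WWC2, a scaffold of the kinase cascade, had 7 reads, and TAOK3 had 3.

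**Figure D4:**
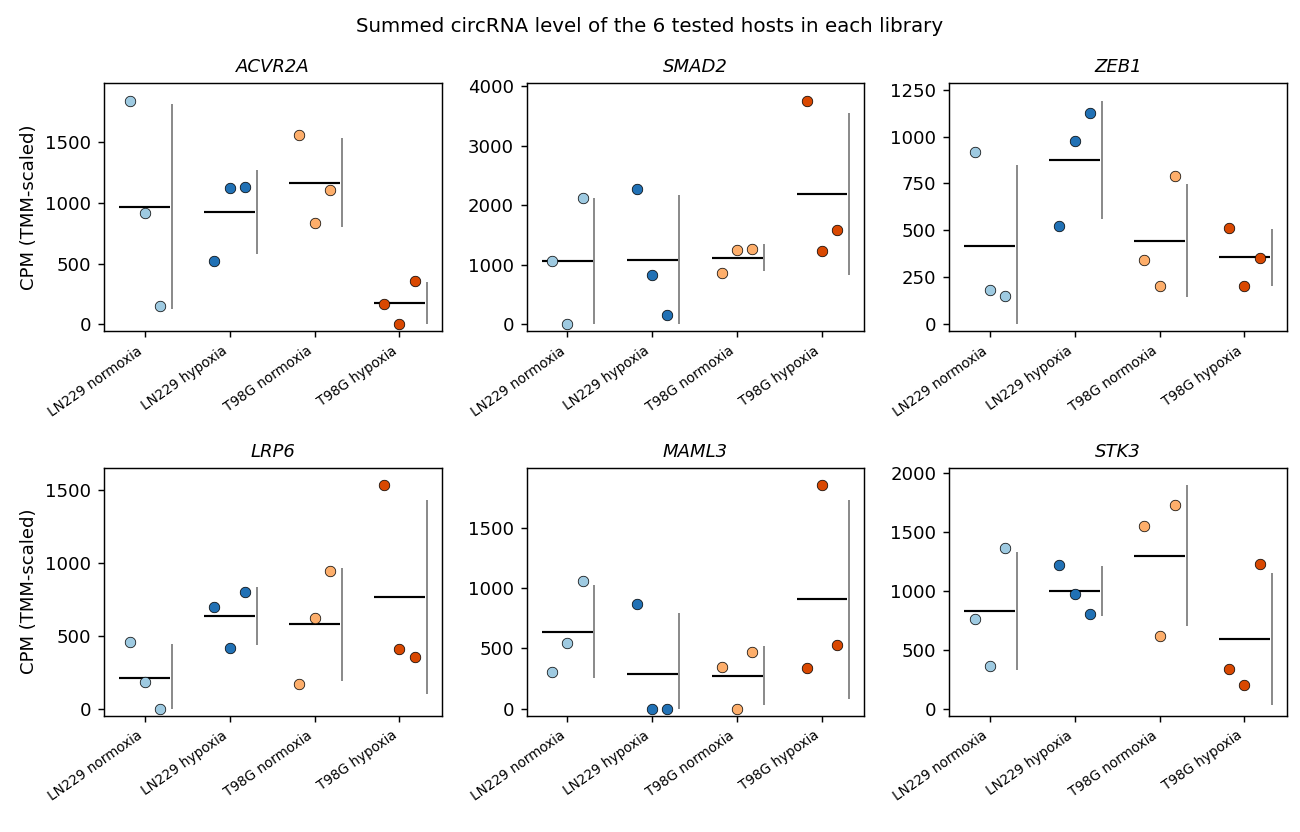
CPM of the 6 tested member hosts in each library (points), with the mean (horizontal line) and SD (vertical line, ended at 0) of the 3 libraries of a group. For ACVR2A the T98G hypoxia points lie below all T98G normoxia points (mean 175 against 1162 CPM), and the hypoxia and normoxia points overlap within each line for the other 5 hosts.

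Reads were found in both lines for 29 of the 38 hosts. LTBP1, AXIN1, TCF7L2, CSNK1A1, ADAM17 and YAP1 had reads in LN229 only, with at most 4 reads each, and TGFBR3, ROR1 and JAG1 in T98G only, with at most 2. Reads in both normoxia and hypoxia were found for 29 hosts, in hypoxia only for 5 (TGFBR1, TGFBR3, ADAM17, YAP1 and TAOK3) and in normoxia only for 4 (LTBP1, CSNK1A1, ROR1 and JAG1). With at most 4 reads per host, a presence in 1 line or condition was not distinguishable from counting error at this depth.

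Across the 6 tested member hosts the median log2 fold change was 0.10 in LN229 and 0.04 in T98G, beside 0.03 and -0.03 over all 418 hosts. Host genes had 1 loop with a read in 14 cases and more than 1 in 24. Of the 93 loops 44 shared a donor or acceptor end with another loop of the same host, in 14 hosts, so reads of sister loops come from overlapping exons and are not independent members.

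**Figure D5:**
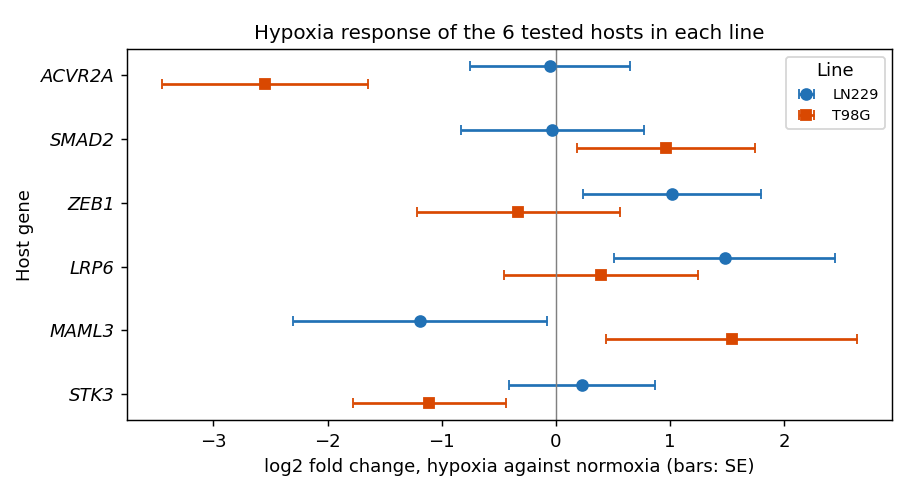
Log2 fold change of hypoxia against normoxia for the 6 tested member hosts, with SE bars, in LN229 and in T98G. ACVR2A in T98G lies farthest from 0 (-2.55), and no member passed an adjusted p of 0.05.

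The wider pathways were read from a list of 158 other genes, of which 56 had a listed circRNA, 45 had a read and 10 passed the filter. None of the 10 had an adjusted p under 0.05 in any of the 6 comparisons by edgeR, and at an unadjusted p under 0.05 the count was 2 of 10 in LN229 (9.33% of all hosts), 2 in T98G (18.2%), 1 for the average (19.1%), 2 for the difference (7.42%), 0 for the lines in normoxia (3.11%) and 2 for the lines in hypoxia (9.81%). The 3 with most reads were CSNK1G3, a casein kinase (222 reads), FAT1, an atypical cadherin linked to Hippo signalling (203 reads), and MIB1, a ubiquitin ligase that activates Notch ligands (135 reads). Each of these had more reads than any member. WWC3, a relative of WWC2, had 0, 0 and 1 reads in T98G normoxia and 7, 10 and 8 in T98G hypoxia, a pooled ratio of 20.6 with an exact 95% counting interval of 3.38 to 847. Its log2 fold change in T98G was 4.30 (SE 1.22, adjusted p 0.107 by edgeR), and without both normoxia replicates 3 the adjusted p was 0.00954 in T98G and 0.0058 for the average, where 17.2% and 24.8% of 367 hosts were called. No fold is given there, since both remaining T98G normoxia libraries had 0 reads. WWC3 reached 5 reads only in the T98G hypoxia libraries, LN229 hypoxia replicate 1 and LN229 normoxia replicate 3. Without both normoxia replicates 3 it thus passed the filter only through hypoxia libraries, where it was high, which favoured these calls. In the full fit, too, it would not have passed without the T98G hypoxia libraries. In T98G normoxia replicate 3, which had 679 CYP24A1 reads, WWC3 had its 1 read, and in LN229 normoxia it had 0, 1 and 9, with 9 in the replicate with 1880 CYP24A1 reads. Whether WWC3 moves with CYP24A1 was not tested. SMURF2, a ubiquitin ligase that acts on SMADs and TGF-beta receptors, had 3, 5 and 3 reads in T98G normoxia and 0, 0 and 1 in T98G hypoxia, a pooled ratio of 13.3 of normoxia over hypoxia with an exact 95% counting interval of 1.94 to 574. In LN229 it had 2, 4 and 0 reads in normoxia and 1, 9 and 11 in hypoxia. SMURF2 reached 5 reads only in LN229 hypoxia replicates 2 and 3 and T98G normoxia replicate 2. It thus passed the filter only through groups where it was high, which favoured the contrasts given next. The log2 fold change in T98G was -3.06 (SE 1.31, unadjusted p 0.0312, adjusted p 0.214 by edgeR), and the response of T98G minus that of LN229 was -4.71 (SE 1.61, adjusted p 0.385). These were -3.22 (adjusted p 0.0926) and -4.30 (adjusted p 0.401) without both normoxia replicates 3. Both genes were singled out after their values were seen, and both counting intervals leave out the spread between libraries.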

How the data were processed

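Junction reads were measured by RNA sequencing in 12 libraries. Per the submitters' processing notes, CASAVA 1.8, BWA and the hg19 build were used, and which tool called circRNAs is not stated in these sources. The authors deposited 1 table that gives each circRNA a junction read count (whole numbers) and a log2 value in each library, beside position, class and length. The deposited log2 values, whose scaling is not stated, served only as an alternative. 1 empty line was not used.

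Counts were summed by host gene or kept per loop, filtered (at least 5 reads in at least 3 of 12 libraries), scaled by TMM on total junction reads and fitted in edgeR 4.0.16 (R 4.3.3) with 1 mean per group. The quasi-likelihood test was two-sided, with a threshold of 0.05 after Benjamini-Hochberg adjustment. DESeq2 1.42.0 and limma 3.58.1 served as alternatives. Simulated T98G libraries (418 hosts, dispersion 0.2) gave calls for 3 of 67, 25 of 66 and 52 of 67 hosts changed by 1, 2 and 3 on the log2 scale, with 3 false among 83 calls. Far more hosts were changed there than were called in the data, which eases the adjusted threshold. The simulation used the levels of all tested hosts and had no libraries that stood apart. Its rates may therefore overstate what could be found among the members. Intervals of shares and of pooled ratios, and floors (3 counts), cover counting error only and not the spread between libraries. The members, gene lists and tests were chosen with earlier results of these data known. Fold changes are given for tested members with an unadjusted p under 0.05 in any comparison or among the 2 most abundant hosts of a pathway. Replicate numbers come from the titles. Deviations from the group means of same-numbered libraries correlated at 0.28 to 0.601 between the lines in normoxia, and different-numbered ones at -0.475 to 0.355. By the rule that every same-numbered pair exceed 0.1, only that comparison would count as paired. The rule cannot show pairing by number. Among normoxia replicates 1 and 2, different-numbered pairs had 0.271 and 0.355, beside 0.298 and 0.28 for same-numbered pairs. The labels do not say that a number marks a shared culture. Between normoxia and hypoxia, deviations of same-numbered libraries correlated at -0.506 to 0.00523 in LN229 and -0.0285 to 0.0144 in T98G. Junctions were read by matching span and spliced length to GENCODE v29 transcripts, not by coordinates.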

Additional observations from a re-analysis of the deposited data

How the results depend on the processing

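Of 266 counts of called members under 23 alternatives, 262 stayed at 0 and 4 became 1, each time ACVR2A at host level. These were T98G with only the libraries compared (1), T98G without both normoxia replicates 3 (1), the average of both lines without both normoxia replicates 3 (1), and the average with single libraries left out, where the count ranged from 0 to 1 and was 1 without LN229 normoxia replicate 3. Those 2 libraries were known to lie near hypoxia, and leaving them out raised the calls over all hosts from 0 to 63 in T98G and from 16 to 91 for the average. Across alternatives the log2 fold change of ACVR2A in T98G lay between -3.36 and -2.07, with adjusted p of 0.0369 to 0.408, and for the average between -1.68 and -0.88, with 0.0317 to 0.544. With the replicate number as a block the count of called members was 0 in every comparison, and the replicate block changed no member call. Over all hosts the block moved calls from 0 to 2 in LN229, from 0 to 1 in T98G and from 16 to 13 for the average, and over all loops from 0 to 3, 1 to 9 and 10 to 10. The average of both lines and the difference use all 4 groups, so they have no fit with only the libraries compared.

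The averaged log2 fold change changed sign for 4 hosts or loops that passed no test. For MAML3 summed by host it was -0.01 without TMM and ranged from -0.09 to 0.48 with single libraries left out. For the larger SMAD2 loop it was -0.14 without TMM and -0.29 to 0.56 with libraries left out. For the STK3 loop it was 0.52 without both normoxia replicates 3, 0.02 by limma on the deposited log2 values, and -0.72 to 0.26 with libraries left out. For the MAML3 loop it was -0.38 by limma and -0.08 to 0.54 with libraries left out. With single libraries left out the average for hosts that kept their sign ranged from 0.01 to 0.97 for SMAD2, -0.94 to -0.13 for STK3 and 0.69 to 1.5 for LRP6. The cause was not tested. With a median of 6.5 reads per host, depth limited all but 6 hosts to counts.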
